A study of Mus musculus with 5 samples.

Results

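The genes of creatine and adenylate energy buffering were examined in tibialis anterior (TA) muscle, a fast-twitch hindlimb muscle of the mouse. The set holds 9 genes picked by name, and the rule for them uses no measured value: the creatine kinases Ckm, Ckmt2 and Ckb, the creatine transporter Slc6a8, the creatine synthesis enzymes Gatm and Gamt, the adenylate kinase Ak1, and the AMP deaminases Ampd1 and Ampd3. All 9 were found among the 17015 genes of the deposited table. RNA-seq was available from 5 libraries of 8-week-old sedentary male mice, 3 labelled WT control and 2 labelled skmNrip1-/-. The skmNrip1-/- mice carried a floxed Nrip1 allele, with exon 4 between the loxP sites, and Cre recombinase driven by the myogenin promoter, which is active in skeletal muscle from the time its fibers form. Nrip1 encodes RIP140, a transcriptional coregulator. The WT control mice were littermates that carried no Cre, so both groups came from the same floxed line. The study's legend gives 3 mice per group, but only 2 libraries labelled skmNrip1-/- were available here. In the labels each library is a separate sample, and the p-values measure only the spread between these samples.

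Contracting muscle can spend ATP faster than it can be remade by respiration or glycolysis, and phosphocreatine is its immediate reserve. Cytosolic creatine kinase uses phosphocreatine to regenerate ATP beside the myofibrils, and the mitochondrial form rebuilds phosphocreatine from ATP made in the organelle. Adenylate kinase recovers ATP from paired ADP molecules, and AMP deaminase removes the resulting AMP as IMP, which the purine nucleotide cycle returns to AMP. Muscle takes most of its creatine from the blood, where it arrives after synthesis mainly in kidney and liver.

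Expression was given as FPKM (fragments scaled by transcript length and library size), a per-length level that can be set side by side between genes. Fragment counts were not available, so relative depth was only estimated, from the most common ratio of low FPKM between libraries. With WT control replicate 1 set to 1, the other WT control libraries stood at 1.1 and 0.99. Those labelled skmNrip1-/- stood at 0.81 and 0.97. Genes encoded by mitochondrial DNA made up 45.4% to 50.7% of summed FPKM in WT control and 58.6% and 60.9% in the other group. The targeted gene went against its label. Nrip1 had 4.64, 7.69 and 6.55 FPKM in WT control and 25.3 and 22.5 FPKM in the libraries labelled skmNrip1-/-, and was called higher (adjusted p = 0.0261 from limma). The study itself measured Nrip1 RNA and RIP140 protein of this mouse line in gastrocnemius and heart, and those measurements were not analysed here. The table has a single value per gene, so exon 4, which holds the start and stop codons, could not be read on its own. Every direction given here therefore rests on the labels.

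Groups were compared with limma on log2(FPKM + 0.1) over the 12148 genes whose mean FPKM reached 0.5. A gene counted as called when its Benjamini-Hochberg adjusted p was at most 0.05 and it differed at least 1.2-fold. This scale understates the change of genes with low FPKM. All 9 genes passed the minimum, and none was called. Across all genes tested, 0.37% were called higher and 0.0823% lower. At an unadjusted p of 0.05 or less, Ckmt2 was higher and Gamt lower, 2 of 9, beside 11.9% of all genes tested. Both libraries labelled skmNrip1-/- lay above every WT control library for 2 of 9 genes, Ckmt2 and Slc6a8, beside 15.8% of all genes tested. They lay below every WT control library for 4 of 9, Gamt, Gatm, Ampd1 and Ckm, beside 14.4%. The median log2 fold change was -0.0010 over the 9 genes and -0.00054 over all genes tested, with 4 of the 9 genes above 0 and 5 below. Rescaling the values to TPM, a sum fixed for every library, moved the median of all genes to -0.29 and the 9 genes with it. Ckmt2 then stood at 0.22, Slc6a8 at -0.10, Ckm at -0.58 and Ampd1 at -0.60.

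The levels spanned from one of the most abundant messages of the muscle to one near 1 FPKM. By mean FPKM over the 5 libraries, Ckm ranked 6th of 17002 genes not encoded by mitochondrial DNA. Ckmt2 ranked 41st, Ak1 88th and Ampd1 160th. Slc6a8 ranked 1415th, Gamt 5493rd, Ckb 7238th, Ampd3 8104th and Gatm 10451st. In this order, each gene's lowest library was above the next gene's highest, except that Gamt overlapped Ckb and Ckb overlapped Ampd3. Together the 9 genes made up 2.58% to 3.19% of the summed FPKM of genes not encoded by mitochondrial DNA, most of it Ckm, which alone made up 2.07% to 2.81%.

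**Figure D1:**
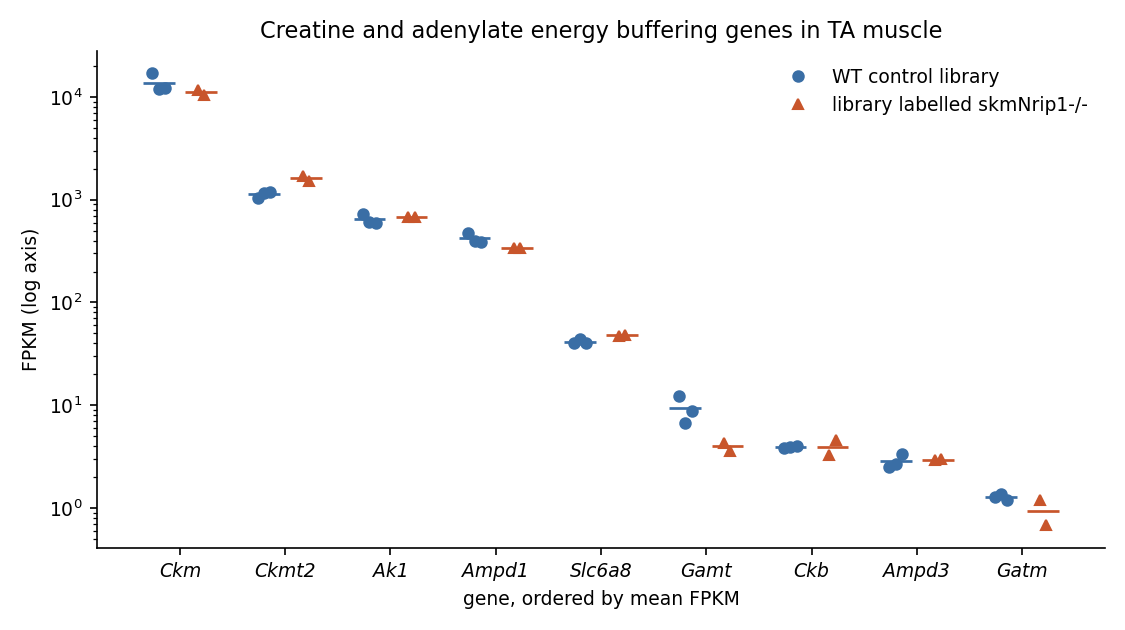
FPKM of the 9 genes on a log axis, ordered by mean level, with a circle for each of 3 WT control libraries, a triangle for each of 2 libraries labelled skmNrip1-/-, and a line at each group mean. The genes run from Ckm, at 10393 to 16980 FPKM, down to Gatm, at 0.680 to 1.36 FPKM.

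Among the creatine kinases, the mitochondrial form was higher and the cytosolic muscle form lower in the libraries labelled skmNrip1-/-, and neither difference passed adjustment. Ckmt2 (ENSMUSG00000021622) encodes the sarcomeric mitochondrial creatine kinase. It lies on chromosome 13, 91853387 to 91876885 on the minus strand of GRCm38, and has a single annotated transcript of 1486 nt. Ckm (ENSMUSG00000030399), the muscle-type cytosolic enzyme, lies on chromosome 7, 19404776 to 19422841 on the plus strand. Ckb (ENSMUSG00000001270), the brain-type cytosolic enzyme, lies on chromosome 12, 111669361 to 111672338 on the minus strand. The 250 bases before the start site of each, from RefSeq on GRCm38.p6, are shown because these kinases share a reaction and differ in level. They read 5′ to 3′ along the gene's strand, and capitals mark matches to the E-box CANNTG, to TATAAA or to the MEF2 motif (CTA, any 4 bases, TAG). Searches covered both strands.
Ckm, chr7:19410844-19411093 (plus strand): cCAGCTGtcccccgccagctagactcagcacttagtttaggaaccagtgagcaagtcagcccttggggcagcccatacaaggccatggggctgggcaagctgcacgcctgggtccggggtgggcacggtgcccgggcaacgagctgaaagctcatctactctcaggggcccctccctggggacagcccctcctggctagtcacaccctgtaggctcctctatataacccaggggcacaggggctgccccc
Ckmt2, chr13:91876886-91877135 (minus strand): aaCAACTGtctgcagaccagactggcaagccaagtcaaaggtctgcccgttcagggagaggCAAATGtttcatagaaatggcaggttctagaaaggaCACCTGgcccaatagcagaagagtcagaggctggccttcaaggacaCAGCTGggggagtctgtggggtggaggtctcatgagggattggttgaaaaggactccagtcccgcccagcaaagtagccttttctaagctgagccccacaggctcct
Ckb, chr12:111672339-111672588 (minus strand): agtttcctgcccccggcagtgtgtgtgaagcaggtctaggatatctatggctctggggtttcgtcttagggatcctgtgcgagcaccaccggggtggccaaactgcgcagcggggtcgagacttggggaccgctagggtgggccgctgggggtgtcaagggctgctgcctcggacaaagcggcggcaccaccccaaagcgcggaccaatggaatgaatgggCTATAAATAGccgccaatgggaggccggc
The Ckmt2 stretch held 4 E-boxes, beginning 248, 189, 153 and 107 bases before the start. The Ckm stretch held 1, beginning 249 bases before it. In Ckb a MEF2 match and a TATAAA match overlapped, beginning 29 and 28 bases before the start. Among 32851 promoter windows of 300 bases, from 250 before to 50 after the start, 72.3% held an E-box, 13.6% TATAAA and 3.69% the MEF2 motif. These matches are letters in the reference and were not tied to any measurement of binding.

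Ckmt2 had 1038, 1157 and 1184 FPKM in the WT control libraries, given here and throughout in replicate order, and 1700 and 1521 FPKM in those labelled skmNrip1-/-. The lower of the latter was above the highest WT control library. The group means were 1126 ± 77.2 FPKM (SD, n = 3) and 1611 ± 127 FPKM (SD, n = 2), a ratio of 1.43. The log2 fold change was 0.52 (standard error 0.13, 95% interval 0.20 to 0.83, limma unadjusted p = 0.00626), and it did not pass adjustment over all genes (adjusted p = 0.223). Of all genes tested, 8.64% had an absolute log2 fold change at least as large. An annotated antisense gene, 1700119I11Rik, shares 84 exon bases with Ckmt2, and the kit given in the study's methods does not mark strand.

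Ckm had 16980, 11835 and 12113 FPKM in WT control and 11723 and 10393 FPKM in the libraries labelled skmNrip1-/-. Those libraries were below all WT control libraries, but the first lay close under WT control replicate 2, and WT control replicate 1 stood well above the other 4. The means were 13643 ± 2893 FPKM (SD, n = 3) and 11058 ± 940.3 FPKM (SD, n = 2). The groups had a log2 fold change of -0.29 (95% interval -0.82 to 0.25, adjusted p = 0.692 from limma), and without WT control replicate 1 it was -0.12. The antisense gene A930016O22Rik shares 451 exon bases with Ckm, 15.5% of its exon bases.

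Ckb was low in every library. Its FPKM was 3.80, 3.92 and 3.98 in WT control and 3.29 and 4.60 in the libraries labelled skmNrip1-/-, which bracketed the controls. This was a log2 fold change of -0.0010 (95% interval -0.40 to 0.40, adjusted p = 0.999 from limma). Of the summed FPKM of these kinases, Ckm made up 94.2%, 91.1% and 91.1% in WT control and 87.3% and 87.2% in the other group. Ckmt2 made up 5.76%, 8.90% and 8.90% in WT control, against 12.7% and 12.8%. Ckb never reached 0.04% of the sum.

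Fibre-type marker lists are set here beside these kinases, and the mitochondrial share is given above. The fast list had a median log2 fold change of -0.22 and the slow and oxidative list one of 0.0027. Of the 10 fast fibre markers, 9 had a log2 fold change below 0 and 5 had libraries entirely below WT control, beside 14.4% of all genes tested. Their summed level was 82409 to 114388 FPKM in WT control, highest in replicate 1, as for Ckm, and 76516 and 79488 FPKM in the libraries labelled skmNrip1-/-. Single markers had log2 fold changes from -0.77 for Actn3, a Z-disc protein of fast fibers, to 0.05 for Myh1, the 2X myosin heavy chain. Of the 9 slow and oxidative markers, 5 were above 0 and 4 below. Their summed level was 4811 to 6576 FPKM against 8194 and 8248 FPKM, most of it from myoglobin (Mb, 4329 to 5157 FPKM against 7664 and 7764 FPKM). In this list Myl3 had the lowest log2 fold change, -1.24, and Myl2 the highest, 3.46. Neither list held a called gene, and none was at 0 in any library. The part of fibre type and of the mitochondrial share in the values of Ckmt2 and Ckm was not tested. In whole muscle, fewer cells of a type and less RNA per cell cannot be told apart.

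Of the genes of creatine supply, the transporter was slightly higher (lower after rescaling to TPM) and both synthesis enzymes were lower in the libraries labelled skmNrip1-/-, with none called in the FPKM as deposited. Slc6a8 (ENSMUSG00000019558, chromosome X, 73673150 to 73682502, plus strand) encodes the sodium- and chloride-dependent creatine transporter of the cell membrane. Its FPKM was 40.3, 44.2 and 40.6 in WT control and 47.3 and 48.6 in the libraries labelled skmNrip1-/-. The groups did not overlap, and the means, 41.7 ± 2.18 (SD, n = 3) and 47.9 ± 0.968 (SD, n = 2), differed by 6.25 FPKM. This was a log2 fold change of 0.20 (95% interval -0.036 to 0.44, adjusted p = 0.495 from limma).

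Gamt (ENSMUSG00000020150, chromosome 10, 80258151 to 80261012, minus strand) encodes guanidinoacetate methyltransferase, which makes creatine in the last step of its synthesis. It had the largest difference of the 9 genes. Its FPKM was 12.4, 6.76 and 8.85 in WT control and 4.32 and 3.62 in the libraries labelled skmNrip1-/-. WT control replicates differed by up to 1.84 times, yet the lowest of them was above both libraries of the other group. The means were 9.35 ± 2.87 FPKM (SD, n = 3) and 3.97 ± 0.498 FPKM (SD, n = 2), a ratio of 0.425. The log2 fold change was -1.18 (standard error 0.25, 95% interval -1.78 to -0.58, limma unadjusted p = 0.00261), and the adjusted p was 0.156. Of all genes tested, 1.53% had an absolute log2 fold change at least as large, and Gamt ranked 95th from the lowest. After rescaling to TPM its log2 fold change was -1.47, or -1.17 relative to the shifted median of all genes, and Gamt was called (adjusted p = 0.0464 from limma). No other annotated gene overlaps Gamt.

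The 250 bases before the RefSeq start of Gamt on GRCm38.p6 are shown as the upstream stretch of the gene with the largest difference. They hold no match to the motifs given above or to AAGGTCA, a half-site bound by estrogen-related receptors, so no base is in capitals. AAGGTCA is not in the creatine kinase stretches either. Of the 12 promoter windows of the 7 genes with a window, 1 held it, a window of Ak1, beginning 90 bases before the start. Of all promoter windows, 4.72% held it.
Gamt, chr10:80261013-80261262 (minus strand): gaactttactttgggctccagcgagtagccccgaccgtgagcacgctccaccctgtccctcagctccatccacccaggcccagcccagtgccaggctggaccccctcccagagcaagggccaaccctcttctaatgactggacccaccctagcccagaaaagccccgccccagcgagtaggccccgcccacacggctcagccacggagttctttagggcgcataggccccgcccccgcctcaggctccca
In its window a single E-box begins after the start site.

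Gatm (ENSMUSG00000027199, chromosome 2, 122594467 to 122611303, minus strand) encodes the mitochondrial amidinotransferase of the first step, and was the lowest of the 9. Its FPKM was 1.27, 1.36 and 1.2003 in WT control and 1.1980 and 0.680 in the libraries labelled skmNrip1-/-. The first of the latter was thus hardly below the lowest WT control library. The log2 fold change was -0.45 (95% interval -1.08 to 0.17, adjusted p = 0.568 from limma), with -0.82 when replicate 1 labelled skmNrip1-/- was left out and -0.09 when replicate 2 was. Its difference thus rested on a single library.

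**Figure D2:**
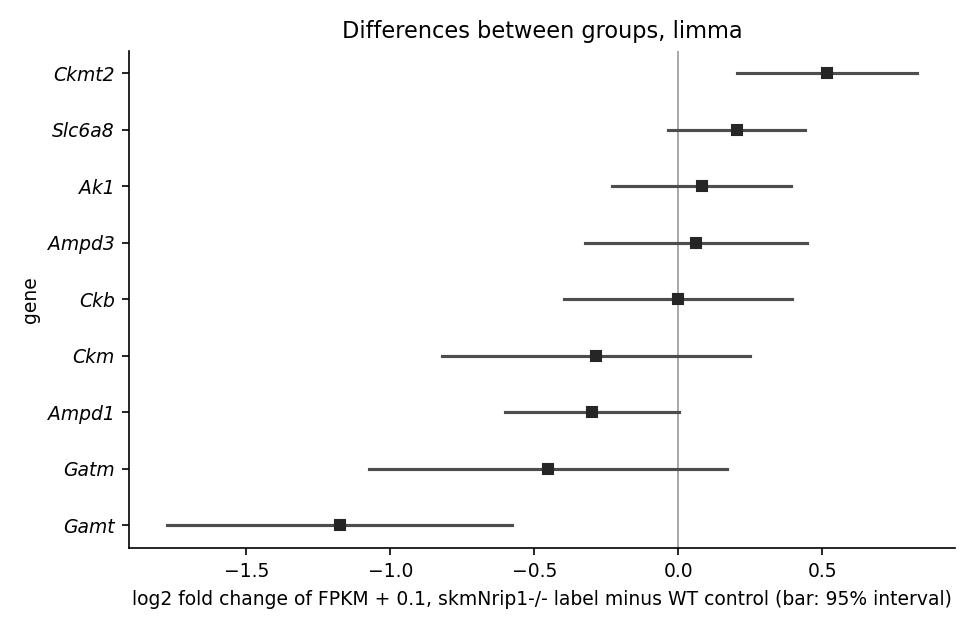
Log2 fold change of each gene, libraries labelled skmNrip1-/- minus WT control on log2(FPKM + 0.1), with the 95% interval of limma. The intervals of Gamt, at -1.18, and Ckmt2, at 0.52, lie apart from 0, and none of the 9 genes passed adjustment over all 12148 genes tested.

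In the adenylate arm, Ampd1 was lower in the libraries labelled skmNrip1-/- while Ak1 and Ampd3 overlapped between groups, and none was called. Ak1 (ENSMUSG00000026817, chromosome 2, 32621758 to 32635058, plus strand) encodes the major cytosolic adenylate kinase of muscle. Its FPKM was 722, 606 and 598 in WT control and 681 and 673 in the libraries labelled skmNrip1-/-. The latter fell within the WT control range. The groups had a log2 fold change of 0.08 (95% interval -0.23 to 0.39, adjusted p = 0.864 from limma).

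Ampd1 (ENSMUSG00000070385, chromosome 3, 103074014 to 103099720, plus strand) encodes the muscle isoform of AMP deaminase. Its FPKM was 474, 399 and 389.8 in WT control and 339 and 343 in the libraries labelled skmNrip1-/-. Both of the latter were below the lowest WT control library. The means were 421 ± 46.4 FPKM (SD, n = 3) and 341 ± 2.92 FPKM (SD, n = 2), a ratio of 0.810. The log2 fold change was -0.30 (standard error 0.13, 95% interval -0.60 to 0.0039, limma unadjusted p = 0.0523), with an adjusted p of 0.426.

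Ampd3 (ENSMUSG00000005686, chromosome 7, 110768206 to 110812405, plus strand) encodes the isoform known from erythrocytes, which is also made in other tissues. Its FPKM was 2.53, 2.68 and 3.34 in WT control and 2.92 and 2.995 in the libraries labelled skmNrip1-/-, within the range of the controls. This was a log2 fold change of 0.06 (95% interval -0.33 to 0.45, adjusted p = 0.923 from limma). Its exons share 195 bases with those of Rnf141 on the other strand. The blood list, made of haemoglobin genes and Alas2, had log2 fold changes of 0.37 to 0.55, and none was called. Of its 5 genes, 4 lay above every WT control library, beside 15.8% of all genes tested. Those 4 are all haemoglobin genes, and Alas2 overlapped between groups. The summed level of the list was 511 to 764 FPKM in WT control and 827 and 996 FPKM in the libraries labelled skmNrip1-/-. The part of blood in the value of Ampd3 was not tested.

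Ratios between genes within a library do not depend on how libraries are scaled, so 6 ratios of FPKM were compared. With 2 libraries against 3 there are 10 splits, and an exact two-sided permutation test cannot give a p below 0.2. The 4 ratios at that p had an adjusted p of 0.3 over the 6 ratios. None could therefore pass the threshold, and the ratios were chosen with earlier results of these data known. The values are given for their size only. Ampd1 stood at 65.6%, 65.8% and 65.2% of Ak1 in WT control and at 49.8% and 50.9% in the libraries labelled skmNrip1-/-. Within each group the ratio varied by about 1 percentage point, although Ak1 and Ampd1 each differed by more than 1.2 times among the WT control libraries. The log2 difference was -0.38, beside SDs of 0.0067 and 0.024 for the 2 groups (exact permutation p = 0.2). It ranged from -0.40 to -0.36 when each library was left out in turn.

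Ckmt2 stood at 6.12%, 9.78% and 9.77% of Ckm in WT control and at 14.5% and 14.6% in the libraries labelled skmNrip1-/-. The log2 difference was 0.80 (exact permutation p = 0.2), and without WT control replicate 1, the library with high Ckm, it was 0.58. Slc6a8 stood at 0.237%, 0.374% and 0.335% of Ckm in WT control and at 0.403% and 0.468% in the other group, a log2 difference of 0.49 (exact permutation p = 0.2) that was 0.30 without WT control replicate 1. Those ratios did not overlap between groups.

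Ampd3 stood at 0.534%, 0.672% and 0.857% of Ampd1 in WT control and at 0.861% and 0.874% in the libraries labelled skmNrip1-/-. The highest WT control value was close under the others, the log2 difference was 0.36 (exact permutation p = 0.2), and it was 0.19 without WT control replicate 1. Ckb to Ckm and Gamt to Gatm overlapped between groups, with log2 differences of 0.28 (exact permutation p = 0.6) and -0.70 (exact permutation p = 0.4). The Gamt to Gatm difference was -0.41 without skmNrip1-/- replicate 1, -0.98 without replicate 2 and -0.46 without WT control replicate 1. In all 5 libraries Ampd1 made up 98.6% to 99.0% of the summed FPKM of Ampd1, Ampd2 and Ampd3.

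**Figure D3:**
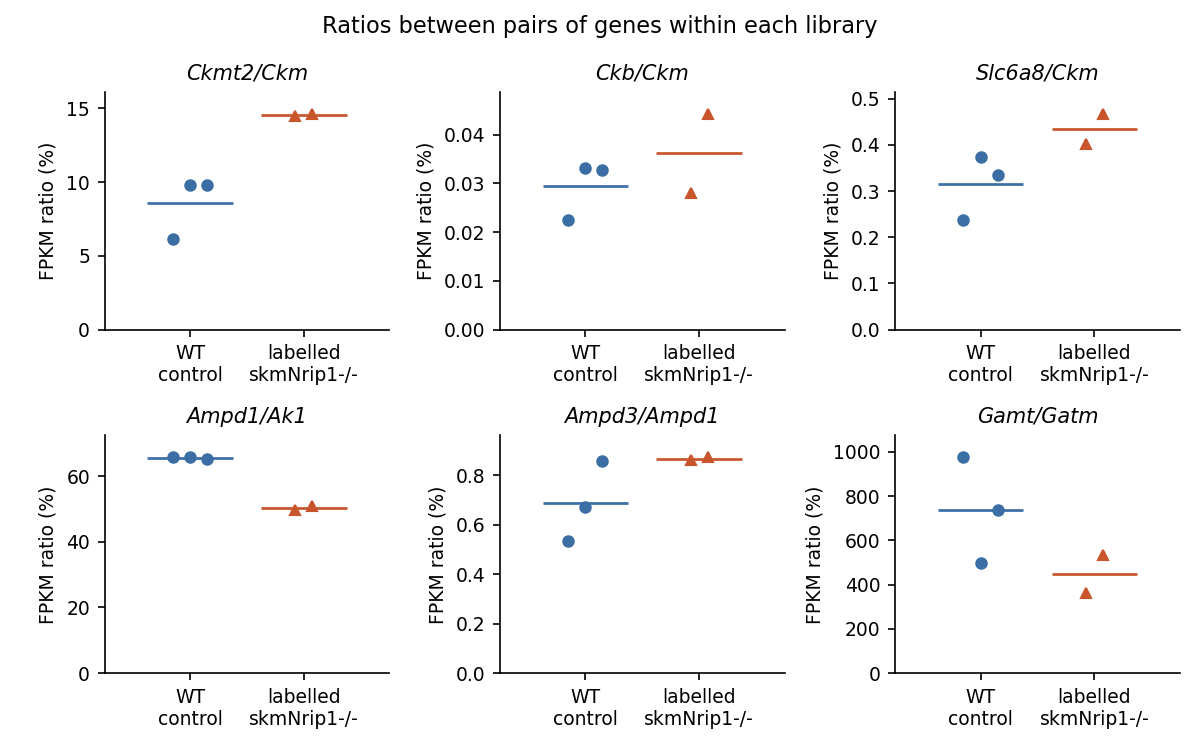
FPKM of one gene as a percentage of another in the same library, with axes from 0, circles for 3 WT control libraries, triangles for 2 libraries labelled skmNrip1-/- and a line at each group mean. Ampd1 to Ak1 lies at 65.2% to 65.8% in WT control and 49.8% to 50.9% in the other group, and Ckmt2 to Ckm at 6.12% to 9.78% and 14.5% to 14.6%.

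Other genes of phosphagen and adenylate metabolism were followed in a list of 35. Of these, 32 were matched in the table, 27 passed the minimum and none was called. Their median log2 fold change was 0.09, and it was -0.0078 without skmNrip1-/- replicate 1, 0.0077 without WT control replicate 3 and -0.20 after rescaling to TPM. Of the 27, 7 lay entirely above WT control, beside 15.8% of all genes tested, and 4 entirely below, beside 14.4%. All 5 tested genes of mitochondrial exchange were above 0, with a median of 0.16. All 5 were below 0 after rescaling to TPM, though above the median of all genes. With TPM rescaling without mitochondrially encoded genes, all 5 were above 0, from 0.13 to 0.35. Without skmNrip1-/- replicate 1, 4 of 5 were above 0. This group carries ATP, ADP and phosphocreatine across the mitochondrial membranes. The adenine nucleotide carrier of muscle, Slc25a4, had 2368, 2141 and 2342 FPKM in WT control and 2757 and 2558 FPKM in the libraries labelled skmNrip1-/- (log2 fold change 0.22, adjusted p = 0.594 from limma).

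Ak3, an adenylate kinase of the mitochondrial matrix, had a log2 fold change of 0.09, and Ak4, also mitochondrial, one of 0.22. Both overlapped between groups. In the purine nucleotide cycle, Adssl1, the muscle adenylosuccinate synthetase that starts the return of IMP to AMP, had 861, 984 and 955 FPKM in WT control and 984 and 871 FPKM in the libraries labelled skmNrip1-/- (log2 fold change -0.0097, adjusted p = 0.989 from limma). Its level was thus higher than that of Ampd1 in every library.

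The largest log2 fold changes of the list above 0 were those of Nme1, Nt5c1a and Adk, and the largest below 0 those of Ampd2, Nme7 and Xdh. Nme1, a nucleoside diphosphate kinase, had 13.7, 16.1 and 11.6 FPKM in WT control and 27.4 and 22.4 FPKM in the libraries labelled skmNrip1-/- (log2 fold change 0.85, adjusted p = 0.129 from limma). It shares 418 exon bases with the overlapping gene Gm20390 on the same strand, so its reads could be split between them. Adk, which returns adenosine to AMP, had 57.4, 80.7 and 76.1 FPKM in WT control and 106 and 102 FPKM in the other group (log2 fold change 0.55, adjusted p = 0.271). Nt5c1a, a cytosolic nucleotidase that makes adenosine from AMP, overlapped between groups (0.58, adjusted p = 0.495).

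Ampd2, the main AMP deaminase of many non-muscle cells, had 2.27, 2.02 and 2.33 FPKM in WT control and 1.03 and 1.67 FPKM in the libraries labelled skmNrip1-/- (log2 fold change -0.70, adjusted p = 0.302 from limma). Xdh, xanthine dehydrogenase at the end of purine breakdown, had 29.9, 28.3 and 30.8 FPKM in WT control and 23.0 and 20.5 FPKM in the other group (log2 fold change -0.45, adjusted p = 0.196). Nme7 was under 1 FPKM in every library (log2 fold change -0.47, adjusted p = 0.562 from limma). Its exons share 575 bases with those of Atp1b1 on the other strand, which stood at 122 to 247 FPKM, so its values are uncertain. The groups did not overlap for Ampd2, Xdh and Nme7. Ckmt1, the ubiquitous mitochondrial creatine kinase, was below the minimum at 0.0415 to 0.137 FPKM, so mitochondrial creatine kinase message in this muscle was nearly all Ckmt2.

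**Figure D4:**
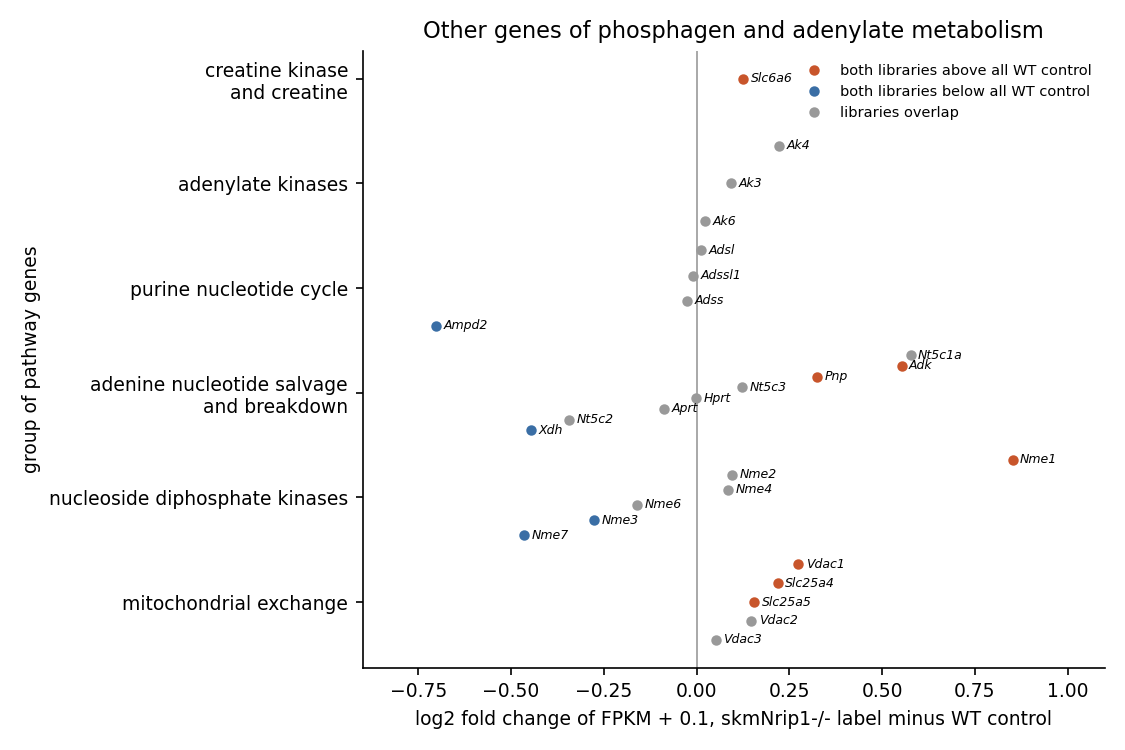
Log2 fold change on log2(FPKM + 0.1), libraries labelled skmNrip1-/- minus WT control, of the 27 tested genes of the list in 6 groups, coloured by whether both libraries lay above, below or among the WT control libraries. The genes of mitochondrial exchange all lie right of 0, between 0.05 and 0.27. After rescaling to TPM they run from -0.25 to -0.025, and without mitochondrially encoded genes from 0.13 to 0.35. Nme1, at 0.85, lies farthest right.

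Among all genes tested, those with the most similar pattern to Ckm over the 5 libraries were Hspb8, Lime1 and Xrcc1. Their root mean square distances from Ckm in centred log2(FPKM + 0.1) were 0.018, 0.037 and 0.040. Hspb8, a small heat shock protein, had 151, 105 and 109.8 FPKM in WT control and 107 and 94.5 FPKM in the libraries labelled skmNrip1-/-. Lime1 shares 92.5% of its exon bases with Zgpat, so its values are uncertain. For Gamt the nearest were Sult5a1, Cib2 and Kazald1, at distances of 0.10, 0.11 and 0.11. Cib2, a calcium- and integrin-binding protein, had 66.7, 42.0 and 45.9 FPKM in WT control and 24.7 and 23.2 FPKM in the libraries labelled skmNrip1-/-. Each of these genes shared with its partner a high WT control replicate 1.

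The tissue label was checked against marker lists. The 5 skeletal muscle markers summed to 22921 to 29673 FPKM in WT control. In the libraries labelled skmNrip1-/- the sums were below that range, at 22480 and 21410 FPKM. Most of each sum was Acta1, at 16403 to 21925 FPKM in WT control and 14766 and 14369 FPKM in the other group. Acta1 (log2 fold change -0.40) was the only marker of the 5 that did not overlap between groups. The other 4, Des, Ttn, Neb and Tcap, overlapped, with log2 fold changes from -0.04 to 0.03. Apart from blood, the lists of other cell types were low: endothelium at 57.4 to 71.1 FPKM, smooth muscle at 44.5 to 55.4 FPKM, nerve and Schwann cell at 15.1 to 26.8 FPKM, macrophage at 3.24 to 7.31 FPKM and adipocyte at 1.85 to 3.34 FPKM. The fibroblast list lay at 142 to 278 FPKM and the satellite cell list at 0.743 to 1.13 FPKM. Between the groups the summed level overlapped in 6 of these 7 lists, and the satellite cell sum was below WT control in both libraries labelled skmNrip1-/-. The blood list, given above with Ampd3, was the highest of the lists of other cell types, at 511 to 996 FPKM, and its sum lay above WT control in both libraries. No gene of these lists was called.

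**Figure D5:**
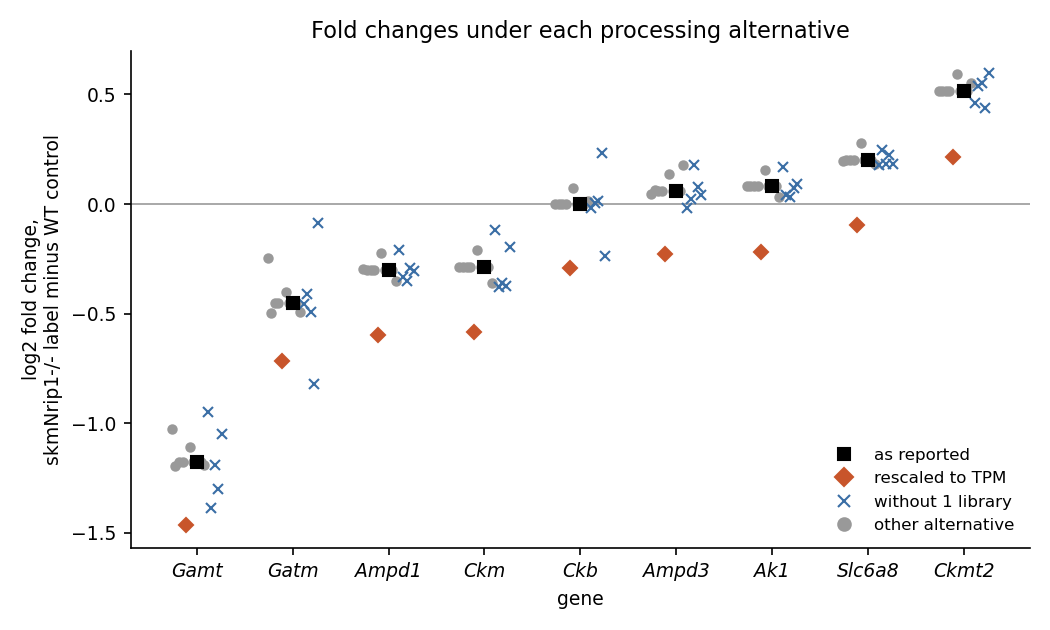
Log2 fold change of each gene as reported (squares), after rescaling to TPM (diamonds), with each library left out in turn (crosses) and under the other alternatives (circles). Gamt stays between -1.47 and -0.95 and Ckmt2 between 0.22 and 0.60, while Ckb, Ampd3, Ak1 and Slc6a8 have values on both sides of 0.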

How the data were processed

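The study's methods describe EDL libraries made with the NEBNext Ultra RNA kit, which does not mark strand, and sequenced in paired ends at AZENTA. They name no separate preparation for TA, and the same kit was assumed here. The authors quantified reads with Salmon 1.10.2 on mm10 and summarized transcripts to genes with tximport. They deposited FPKM per gene and library. How FPKM were computed, and the annotation release, are not given in the sources used here. The median ratio to the genes' geometric mean was 1.00 in every library, so a scaling between libraries is already in the values. Fragments per library are not in the file, so absolute depth is unknown and counting error could not be given. Relative depth is the modal ratio of low FPKM between libraries over 1363 genes with a single transcript. The most common bin of that ratio held only 57 to 78 of these genes, so the estimate is rough. The file also holds 2 columns of the authors' DESeq2 1.44.0 comparison, holding fold changes and adjusted p-values, and these were not used.

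Libraries were grouped by their labels. All 5 entered a limma 3.58.1 fit (R 4.3.3; lmFit, eBayes with an intensity trend, no covariates) on log2(FPKM + 0.1) for genes whose mean FPKM reached 0.5, and p-values were adjusted by Benjamini-Hochberg. The study's thresholds were used for calls, an adjusted p of at most 0.05 and a change of 1.2-fold or more. The fit was tested on simulated data, where it recovered 52 of 106 changes of 1 log2 unit and 78 of 94 of 2 log2 units. It called 3 of 11948 unchanged genes. The noise was drawn independently for each gene and library, so deviations that many genes of a library share were not simulated. Smaller changes, the size of those of all of the 9 genes but Gamt, were not simulated. Ratios were compared with exact two-sided permutation tests (scipy 1.17.1). Positions and overlaps are from GENCODE M21 (GRCm38), which holds 16996 of the gene IDs. RefSeq promoter windows (GRCm38.p6) were found for 7 of the 9 genes.

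The rule for the 9 genes names them and uses no measured value, but the genes, lists and ratios were all chosen with earlier results of these data known. Named genes are Nrip1, the 9 genes, and the closest relatives in the pathway list with its 3 largest rises and falls. The extremes of the fibre-type lists and the 3 genes most alike to Ckm and to Gamt are also named. Mb and the skeletal muscle markers were named after their values were seen. A gene that the rule names is not reported here and was left out of the pathway list. Alternatives were other pseudocounts (1, 0.01), no minimum or a minimum of 1, rescaling to TPM with or without mitochondrially encoded genes or by the median of ratios, eBayes without trend or robust, the replicate number as a block, each library left out, no fold threshold, and an adjusted p of 0.01. EDL sequencing, exercise training, imaging and physiology were not analysed here.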

Additional observations from a re-analysis of the deposited data

How the results depend on the processing

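Under 15 alternatives to the fit, 124 of 135 fold changes of the 9 genes kept their sign and stayed uncalled. The exceptions were few. After rescaling to TPM, Gamt was called at -1.47, and Slc6a8 (-0.10), Ak1 (-0.22) and Ampd3 (-0.23) changed sign, as the median of all genes moved to -0.29. Relative to that median they were 0.19, 0.07 and 0.06. Ckb, at -0.0010, changed sign with a pseudocount of 1 (0.0020), with TPM rescaling without mitochondrially encoded genes (0.074) and with the replicate block (0.013). With each library left out in turn, Ckb ranged from -0.24 to 0.23 and Ampd3 from -0.018 (without WT control replicate 1) to 0.18. The log2 difference of Ckb to Ckm ranged from -0.045 (without skmNrip1-/- replicate 2) to 0.61, and the other 5 ratios kept their sign throughout.

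Of all genes tested, 45 were called higher and 10 lower. These counts were 30 and 63 after TPM rescaling, with 1 of the 9 genes called, 22 and 3 without the eBayes trend, and 14 and 3 at an adjusted p of 0.01. Leaving out each library gave 6 to 51 higher and 2 to 15 lower, with 24 and 3 without WT control replicate 1, 51 and 15 without replicate 2, 17 and 2 without replicate 3, and 8 and 7, and 6 and 3, without skmNrip1-/- replicates 1 and 2. Where 1 library was left in a group, its spread was assumed to be that of the other group. None of the 9 genes was called in those fits. Replicate numbers name different mice, and 2 are shared by the groups. Deviations from group means correlated at 0.0647 for number 1 and 0.0952 for number 2. The replicate block gave 18 higher and 4 lower and called none of the 9 genes. Only 2 libraries carry the skmNrip1-/- label, and low FPKM, as for Gatm, rest on few fragments at an unknown depth.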
